A study of Mus musculus with 6 samples.

Results

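The 10 genes described here act in fibroblast growth factor (FGF) signalling and were measured in limb bone perichondrium, the connective tissue sheath of cartilage, among 55536 genes in the deposited count matrix. They are the ligand genes Fgf9 and Fgf18, the receptor genes Fgfr1, Fgfr2, Fgfr3, Fgfr4 and Fgfrl1, and the feedback inhibitor genes Spry1, Spry2 and Spry4, and each was found by its symbol in the GENCODE M21 mouse annotation. RNA was sequenced from 3 libraries of Fbn1Scx-/- mice and 3 libraries of WT mice, all at postnatal day 4 (P4). Fbn1 encodes fibrillin-1, the microfibril protein mutated in Marfan syndrome, and the titles of the mutant libraries point to deletion by a Cre under the scleraxis (Scx) promoter, which is active in tendon and ligament lineages. The exons deleted, and any floxed alleles or Cre in the WT mice, are details not given in the sources used here. Numbers in the titles are shared between the groups, and the labels do not say that the libraries are separate animals, so p-values speak only of the spread among these libraries. Their names here are mut-596, mut-597, mut-795 (Fbn1Scx-/-) and WT-596, WT-597, WT-795 (WT), and the values of a group follow this order throughout.

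FGF ligands bind receptor tyrosine kinases together with heparan sulphate, and the active receptors signal through the RAS and ERK cascade. In the growth plate, FGF18 made by perichondrium and osteoblasts and FGF9 act on FGFR3 of chondrocytes, which slows chondrocyte proliferation and bone elongation, while FGFR1 and FGFR2 are the main receptors of perichondrium and osteoprogenitors. Sprouty proteins are induced by receptor signalling and restrain the same cascade, so their transcripts are widely used as a readout of FGF activity.

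Fbn1 was at 10.04, 6.75 and 7.10 CPM in the 3 mutant libraries, against 119, 84.7 and 63.5 CPM in the 3 WT libraries, the direction that the labels give. CPM are counts scaled to a common library size, here with TMM, a factor that sets the bulk of genes level between libraries. Total counts lay between 7209217 and 9720268 in Fbn1Scx-/- and between 8019248 and 10316017 in WT. The libraries mut-596 and mut-597 held 6221 and 4024 counts of Xist and 0 of the Y-linked Ddx3y, whereas the other 4 libraries held at most 4 of Xist and 842 to 1641 of Ddx3y, so sex differs between the groups. On the first principal component of log2 CPM, which held 52.3% of the variance, WT-795 lay at -23.1, inside the Fbn1Scx-/- range of -51.9 to -10.8, while WT-596 and WT-597 lay at 39.3 and 60.1. Across 15701 genes, themselves not independent of each other, the log2 fold change of Fbn1Scx-/- over WT fell with the GC content of the transcript (Spearman rho = -0.619). The perichondrium and periosteum markers summed to 9147 to 11131 CPM in Fbn1Scx-/- and 10623 to 16185 CPM in WT, with no listed marker at 0 throughout. These sums were made up mostly of Col1a1 and Postn, at log2 fold changes of -0.58 and 0.17. Of the 10 markers in that list, 5 lay above 0 and 5 below, and 1 of them, Clec3b at -1.02, was lower in every mutant library. Chondrocyte markers summed to 3009 to 3050.5 CPM in Fbn1Scx-/- and to 2089, 2168 and 3388 CPM in the 3 WT libraries, sums made up mostly of Col11a1. Of the 15 chondrocyte markers, 10 had a log2 fold change above 0 and 5 below, where 49.1% of all genes tested lay below. Among those 5, the cartilage genes Acan, Col9a2 and Col2a1 were at -0.54, -0.54 and -0.49, and Acan was lower in every mutant library. The longest transcripts of the 5 were 54.8% to 62.7% GC and those of the 10 above 0 were 39.8% to 56.2%. Marker values here are without a correction for GC. Tendon markers summed to 563, 560.3 and 679 CPM in Fbn1Scx-/- and to 919, 681 and 713 CPM in WT. The markers Fmod and Thbs4 were lower in every mutant library, while Scx, Tnmd, Mkx and Kera overlapped. Markers lower in every mutant library were thus 1 of 10 for perichondrium, 1 of 15 for chondrocytes and 2 of 6 for tendon. Of all genes tested, 6.22% were so. Osteoblast markers summed to 830, 1336 and 1286 CPM in Fbn1Scx-/- and to 1388, 1240 and 1364 CPM in WT. Of these 8 markers, 7 had a log2 fold change below 0 and 1 above. The part of any of these cell types in the results, that of Fgf18 included, was not tested.

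The 10 genes spanned a wide range of levels per length, given here as CPM per kilobase of annotated exon. Fgfr1, a broadly expressed mesenchymal receptor, was the highest in every library, with a mean of 15.3 over all 6, and Fgfr2, a receptor of osteoprogenitors, was next at 7.38. Spry2, Fgfrl1 and Spry1 followed at 7.02, 6.59 and 5.50. Fgf18 averaged 3.04 and Fgfr3, the main receptor of growth plate chondrocytes, averaged 1.46. Fgf9, Spry4 and Fgfr4 closed the order at 1.03, 0.825 and 0.223. The ranges over 6 libraries were apart between Fgfr1 and Fgfr2 and between Spry4 and Fgfr4, and every other pair of neighbours overlapped. Fgfr2 and Spry2 did not keep one order, since Fgfr2 was the higher in 4 of 6 libraries, and nor did Spry2 and Fgfrl1, with Spry2 higher in 4 of 6. With the length of the longest transcript in place of all exons, 8 of 10 genes kept their rank, Fgfrl1 and Spry2 changed places, and Fgfr2 was above Spry2 in 6 of 6 libraries, with means of 17.2 and 7.02.

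**Figure D1:**
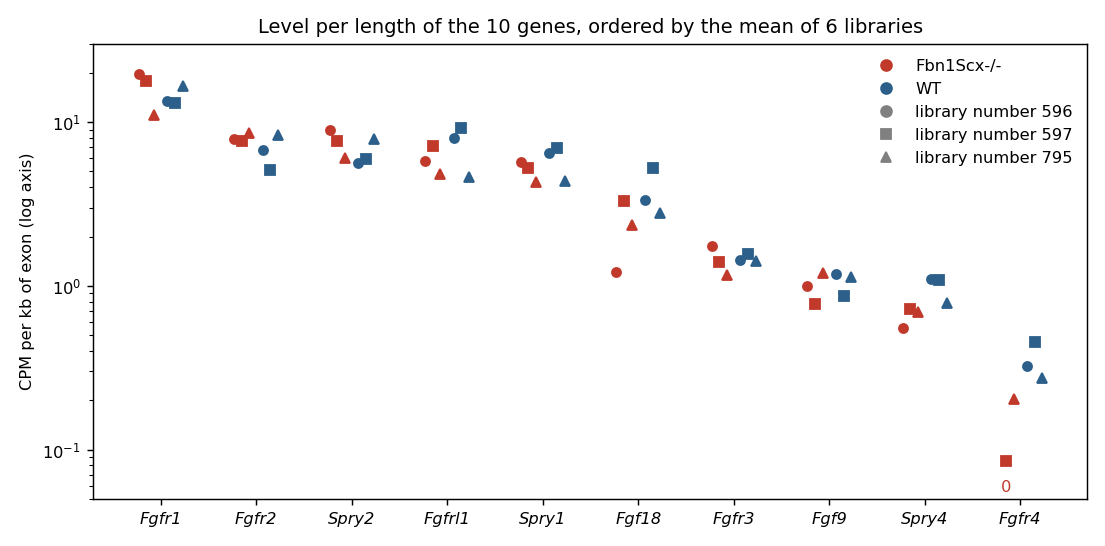
Level of each gene in CPM per kilobase of annotated exon (log axis), with genes ordered by their mean over 6 libraries. Points are single libraries, Fbn1Scx-/- left and WT right within each gene, and marker shapes give the library number. Fgfr1 stands above all others and Fgfr4 below, with mut-596 at 0 counts for Fgfr4.

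None of the 9 genes past the filter on low counts passed the test between genotypes, which was edgeR's quasi-likelihood test with Benjamini-Hochberg adjustment over 15712 genes at a threshold of 0.05. Of all genes tested, 0.00636% passed, which is Fbn1 alone (log2 fold change -3.48, adjusted p = 1.03e-04). At an unadjusted p under 0.05 the members numbered 0 of 9, where 10.5% of all genes had such a p and 7.12% had it with a lower level in Fbn1Scx-/-, and DESeq2 and limma-voom also called 0 of 9 after adjustment. Of the 9 genes, 6 had a log2 fold change below 0, against 49.1% of all genes tested, and their median was -0.09 beside 0.01 for all genes. Both turned when the trend of each library with transcript GC content was removed, to 3 of 9 below 0 and a median of 0.12. The values below therefore describe where libraries lay, with the 95% interval of each difference. In bulk RNA, fewer cells of a type and less RNA per cell cannot be told apart.

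**Figure D2:**
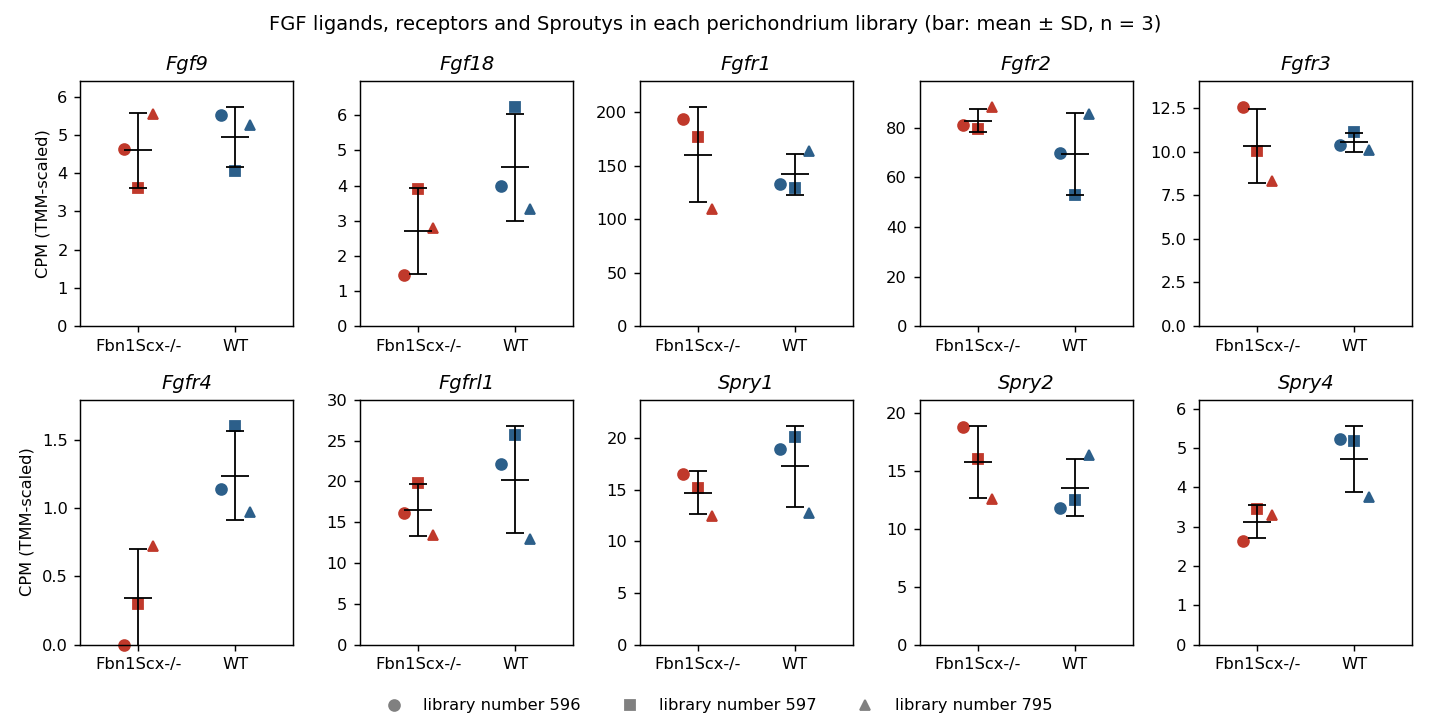
TMM-scaled CPM of the 10 genes in each library, Fbn1Scx-/- left and WT right in each panel, with the mean and SD of 3 libraries as black bars and marker shapes for the library number. Spry4 and Fgfr4 are the genes whose groups do not overlap, and WT-795 (triangle) is the lowest WT library for Fgf18, Fgfr3, Fgfrl1, Spry1, Spry4 and Fgfr4.

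Fgf18 (ENSMUSG00000057967; chromosome 11, 33117430 to 33147400, minus strand, GRCm38), the ligand of perichondrium and osteoblasts, had 11, 26 and 27 counts in the 3 mutant libraries, against 42, 66 and 24 counts in the 3 WT libraries. These are 1.45, 3.90 and 2.78 CPM in Fbn1Scx-/- and 3.99, 6.23 and 3.33 CPM in WT. The groups overlapped, because WT-795 lay below mut-597. The means were 2.71 ± 1.22 CPM in Fbn1Scx-/- and 4.51 ± 1.52 CPM in WT (SD, n = 3 each). The log2 fold change of -0.75 (SE 0.41, 95% interval -1.63 to 0.12) did not pass by edgeR (adjusted p = 0.484), and the exact two-sided permutation test gave p = 0.2. With the GC correction, with sample weights, without mut-596 or without WT-597, Spry4 was further below 0 than Fgf18.

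Fgf9 (ENSMUSG00000021974; chromosome 14, 58070547 to 58112720, plus strand), a ligand that promotes chondrocyte hypertrophy in the proximal limb, lay at 4.62, 3.60 and 5.55 CPM in Fbn1Scx-/- and 5.51, 4.06 and 5.27 CPM in the 3 WT libraries. The libraries mut-597 and WT-597 were the lowest of their groups and the groups overlapped throughout. This gave a log2 fold change of -0.09 (SE 0.32, 95% interval -0.77 to 0.58, edgeR adjusted p = 0.904). Its sign turned with mut-597 left out, at 0.05, and with sex as a covariate, at 0.17.

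The ligand genes differ in base composition, and fold changes followed transcript GC content in these libraries. The longest Fgf9 transcript is 40.9% GC and the longest Fgf18 transcript 56.2%, beside a median of 49.1% over the genes tested. With the per-library GC trend removed, the log2 fold change of Fgf18 was -0.39 (SE 0.36) and that of Fgf9 was -0.46 (SE 0.29), a difference between them smaller than either SE. The RefSeq promoter windows, from 250 bases before to 50 bases after the annotated start in GRCm38.p6, also differ in GC content. They are 42.7% GC for Fgf9 (chr14:58072436-58072735, plus strand) and 78.7% for Fgf18 (chr11:33147351-33147650, minus strand), beside a median of 52.7% over all RefSeq windows. The trend above is with transcript GC, and promoter GC was not compared with fold changes. The Fgf9 window lies inside the GENCODE gene record, not before it. Capitals mark GGGCGG, the GC box, or CCGGAA, the core of ETS factor sites, in either orientation.
Fgf9: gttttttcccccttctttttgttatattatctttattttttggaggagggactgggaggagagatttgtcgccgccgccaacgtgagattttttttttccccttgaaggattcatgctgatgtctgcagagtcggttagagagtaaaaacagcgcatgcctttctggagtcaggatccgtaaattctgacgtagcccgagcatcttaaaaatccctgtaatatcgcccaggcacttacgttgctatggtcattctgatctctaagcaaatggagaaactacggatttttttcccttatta
Fgf18: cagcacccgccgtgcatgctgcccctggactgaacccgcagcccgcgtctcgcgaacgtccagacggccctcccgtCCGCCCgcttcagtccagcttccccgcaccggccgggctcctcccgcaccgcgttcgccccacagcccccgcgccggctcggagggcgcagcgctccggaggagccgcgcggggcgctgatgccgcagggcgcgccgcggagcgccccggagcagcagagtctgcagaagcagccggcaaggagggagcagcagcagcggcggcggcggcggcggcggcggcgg
The Fgf18 window ends in a run of GGC repeats and holds 1 GC box, while the Fgf9 window holds neither motif. Of 32851 RefSeq windows, 35.7% hold GGGCGG and 14.9% hold CCGGAA on either strand, and the motifs did not overlap each other in the members' windows.

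Among 11187 tested protein-coding genes whose mean log2 CPM reached 1, the pattern over the 6 libraries most like that of Fgf18 was found in Dhx34, an RNA helicase gene, with a root mean squared difference of 0.08 on centred log2 CPM. Tomt and Pla2g12a followed at 0.09 and 0.10. For Fgf9 the most similar genes were Sord, which encodes sorbitol dehydrogenase, at 0.04, and Gabarap and Cacna1c at 0.09 each. Dhx34 itself was low, at 0.92 to 3.96 CPM. Among so many candidates, close patterns over 6 libraries can arise without shared regulation, which was not tested.

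Fgfr1 (ENSMUSG00000031565; chromosome 8, 25513654 to 25575718, plus strand) lay at 194, 177 and 110 CPM in the 3 mutant libraries, against 133, 129 and 164 CPM in the 3 WT libraries. The library mut-795 was the lowest of all 6 libraries and the other mutant libraries were the highest. Its log2 fold change of 0.17 (SE 0.25, 95% interval -0.35 to 0.70, edgeR adjusted p = 0.756) turned to -0.37 with sex as a covariate, a fit that sets mut-795 alone against WT. It rose to 0.47 with the GC correction and to 0.38 without mut-795. An antisense gene, Gm16159, covers 1.66% of the annotated Fgfr1 exon bases.

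Fgfr2 (ENSMUSG00000030849; chromosome 7, 130162451 to 133123350, minus strand, where 1 annotated transcript extends the gene record far past the others) was at 81.2, 79.5 and 88.4 CPM in Fbn1Scx-/- and 70.0, 52.7 and 85.6 CPM in WT. The mutant libraries lay close together, and WT-795 lay among them while WT-596 and WT-597 lay below. The means were 83.0 ± 4.70 CPM in Fbn1Scx-/- and 69.5 ± 16.5 CPM in WT (SD, n = 3 each), a log2 fold change of 0.26 (SE 0.23, 95% interval -0.22 to 0.74, edgeR adjusted p = 0.614). The sign was positive under all 17 alternatives run, from 0.08 to 0.41. The protein-coding gene Ctbp2, on the same strand, covers 3.04% of the annotated Fgfr2 exon bases.

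Fgfr3 (ENSMUSG00000054252; chromosome 5, 33721674 to 33737068, plus strand), whose activating mutations cause achondroplasia in humans, was at 12.5, 10.05 and 8.33 CPM in Fbn1Scx-/- and 10.4, 11.1 and 10.1 CPM in WT. The WT libraries lay within the range of the mutant ones. Its log2 fold change was -0.04 (SE 0.26), with a 95% interval of -0.58 to 0.51 (edgeR adjusted p = 0.959), and it turned to 0.33 with the GC correction and to 0.09 without mut-795. The antisense record G630022F23Rik covers 13.9% of its exon bases, so reads there cannot be assigned without strand.

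Fgfr4 (ENSMUSG00000005320; chromosome 13, 55152640 to 55168759, plus strand), a receptor of the myogenic lineage, did not reach the filter on low counts and is in no count of genes tested. It had 0, 2 and 7 counts in the 3 mutant libraries, against 12, 17 and 7 counts in the 3 WT libraries, which is 0, 0.29996 and 0.720 CPM in Fbn1Scx-/- and 1.14, 1.604 and 0.970 CPM in WT. All 3 mutant libraries lay below all 3 WT libraries in CPM, but mut-596 and mut-597 were under the 3 counts that an observed 0 allows, which come to 0.396 and 0.450 CPM there. In a fit of all 31958 genes with at least 1 count, its log2 fold change was -1.76 (SE 0.73, edgeR adjusted p = 0.349). Skeletal muscle markers summed to 2654, 5359 and 4931 CPM in Fbn1Scx-/- and 4731, 11773 and 3581 CPM in the 3 WT libraries. Of these markers, 14 of 15 had a log2 fold change below 0, where 49.1% of all genes tested did. Myogenic progenitor markers summed to 8.85, 21.7 and 21.7 CPM in Fbn1Scx-/- and 26.0, 45.5 and 17.2 CPM in WT. The lowest sums of both lists were in mut-596, with 0 Fgfr4 counts, and the highest in WT-597, with the most Fgfr4, but WT-795 had lower sums than mut-597 and mut-795 and a higher Fgfr4 level. The part of muscle tissue in the Fgfr4 values was not tested.

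Fgfrl1 (ENSMUSG00000008090; chromosome 5, 108692382 to 108706924, plus strand), a receptor that binds FGF but lacks the tyrosine kinase domain, was at 16.1, 19.8 and 13.5 CPM in Fbn1Scx-/- and 22.1, 25.7 and 12.9 CPM in the 3 WT libraries. WT-795 was the lowest of all 6 libraries, while WT-596 and WT-597 lay above every mutant library. For Fgfrl1 the log2 fold change was -0.31 (SE 0.28, 95% interval -0.90 to 0.28, edgeR adjusted p = 0.622). It was -0.57 without WT-795 (adjusted p = 0.125) and turned to 0.12 with the GC correction.

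**Figure D3:**
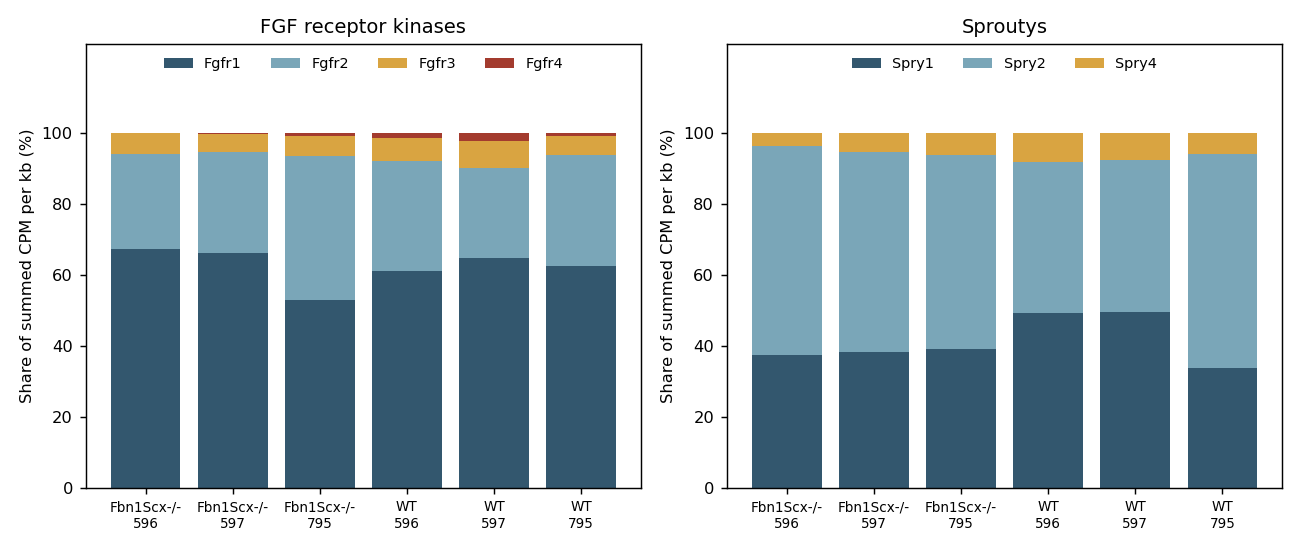
Share of each gene in the summed CPM per kilobase of the receptor kinase genes Fgfr1 to Fgfr4 (left) and of the Sprouty genes (right), as stacked bars for each library, Fbn1Scx-/- on the left. Fgfr1 takes more than any other receptor in every library, and Spry2 takes more than Spry1 in the mutant libraries and WT-795 but less in WT-596 and WT-597.

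As a share of the summed level per length of the receptor kinase genes, Fgfr1 took 67.1%, 66.1% and 52.8% in Fbn1Scx-/- and 61.1%, 64.8% and 62.5% in WT. Fgfr2 took 26.9%, 28.4% and 40.7% in Fbn1Scx-/- and 30.8%, 25.3% and 31.1% in WT. The library mut-795 stood apart from the 5 other libraries with the least Fgfr1 and the most Fgfr2. Fgfr3 held between 5.18% and 7.71% in every library.

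Spry4 (ENSMUSG00000024427), a Sprouty that inhibits the ERK cascade, had 20, 23 and 32 counts in the 3 mutant libraries, against 55, 55 and 27 counts in the 3 WT libraries. In CPM these are 2.64, 3.45 and 3.29 in Fbn1Scx-/- and 5.22, 5.19 and 3.74 in WT. Every mutant library lay below every WT library, with WT-795 nearest to them, and Spry4 was the only one of the 9 tested genes whose groups did not overlap in this direction, where 6.22% of all genes tested were so. In the other direction 0 of 9 were apart, where 5.66% of all genes tested were. The means were 3.13 ± 0.429 CPM in Fbn1Scx-/- and 4.72 ± 0.846 CPM in WT (SD, n = 3 each), a log2 fold change of -0.60 (SE 0.33, 95% interval -1.31 to 0.11). It did not pass by edgeR (adjusted p = 0.487), and the exact two-sided permutation test gave p = 0.1, the smallest that 3 libraries against 3 allow. The sign was negative under all 17 alternatives run, from -0.76 to -0.47. The genes with the most similar pattern were Tysnd1, a peroxisomal protease gene, Atf6b and Dad1. Their root mean squared differences on centred log2 CPM were 0.03, 0.04 and 0.05. As for the ligands, shared regulation was not tested.

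Spry1 (ENSMUSG00000037211; chromosome 3, 37639947 to 37644598, plus strand), which restrains RAS and ERK signalling downstream of several receptors, was at 16.5, 15.1 and 12.4 CPM in Fbn1Scx-/- and 18.9, 20.1 and 12.7 CPM in the 3 WT libraries. Both mut-795 and WT-795 lay at the bottom, and WT-596 and WT-597 lay above all mutant libraries. For Spry1 the log2 fold change was -0.24 (SE 0.25, 95% interval -0.77 to 0.30, edgeR adjusted p = 0.673), -0.43 without WT-795 (adjusted p = 0.228) and 0.16 with the GC correction. An antisense record, Gm42922, covers 24.4% of its exon bases.

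Spry2 (ENSMUSG00000022114; chromosome 14, 105891947 to 105896819, minus strand), the highest Sprouty here per length though not in CPM, lay at 18.8, 16.05 and 12.5 CPM in Fbn1Scx-/- and 11.8, 12.5 and 16.4 CPM in WT. WT-795 was the highest WT library, the opposite of its place for Spry1 and Spry4. For Spry2 the log2 fold change was 0.22 (SE 0.25, 95% interval -0.31 to 0.76, edgeR adjusted p = 0.696), and it turned to -0.10 with sex as a covariate. Of the summed level per length of the 3 Sproutys, Spry1 took 37.3%, 38.3% and 39.0% in Fbn1Scx-/- and 49.1%, 49.5% and 33.7% in the 3 WT libraries. Spry2 took 59.0%, 56.4% and 54.7% in Fbn1Scx-/- and 42.6%, 42.7% and 60.2% in WT. The mutant libraries were close to each other, and WT-795 was on the far side of them from the other WT libraries.

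The promoter windows of Spry1 and Spry2 are shown because Sproutys are induced by ERK signalling, which acts partly through ETS factors. They lie at chr3:37639697-37639996 on the plus strand for Spry1 and chr14:105896770-105897069 on the minus strand for Spry2 in GRCm38.p6, with capitals for GGGCGG or CCGGAA in either orientation as above.
Spry1: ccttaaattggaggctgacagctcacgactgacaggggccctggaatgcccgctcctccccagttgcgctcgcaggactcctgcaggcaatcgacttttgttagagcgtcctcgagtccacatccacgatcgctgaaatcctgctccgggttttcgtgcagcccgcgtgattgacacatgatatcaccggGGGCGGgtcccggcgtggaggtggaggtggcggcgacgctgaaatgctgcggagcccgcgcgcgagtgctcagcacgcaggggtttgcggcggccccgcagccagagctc
Spry2: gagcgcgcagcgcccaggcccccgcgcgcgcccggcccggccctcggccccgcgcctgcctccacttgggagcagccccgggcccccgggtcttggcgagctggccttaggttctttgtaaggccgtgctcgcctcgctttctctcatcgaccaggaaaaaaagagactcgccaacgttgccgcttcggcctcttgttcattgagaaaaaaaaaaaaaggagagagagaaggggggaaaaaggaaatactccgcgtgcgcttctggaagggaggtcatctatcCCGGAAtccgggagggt
The Spry2 window holds 1 CCGGAA, whose first base is base 34 of the transcript, and the Spry1 window holds 1 GC box and no CCGGAA. Of the 9 RefSeq windows of the 8 members that had an entry, those of Fgfr4, Fgfrl1 and Spry2 held CCGGAA. Fgfr1 and Spry4 had no entry in the table used.

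**Figure D4:**
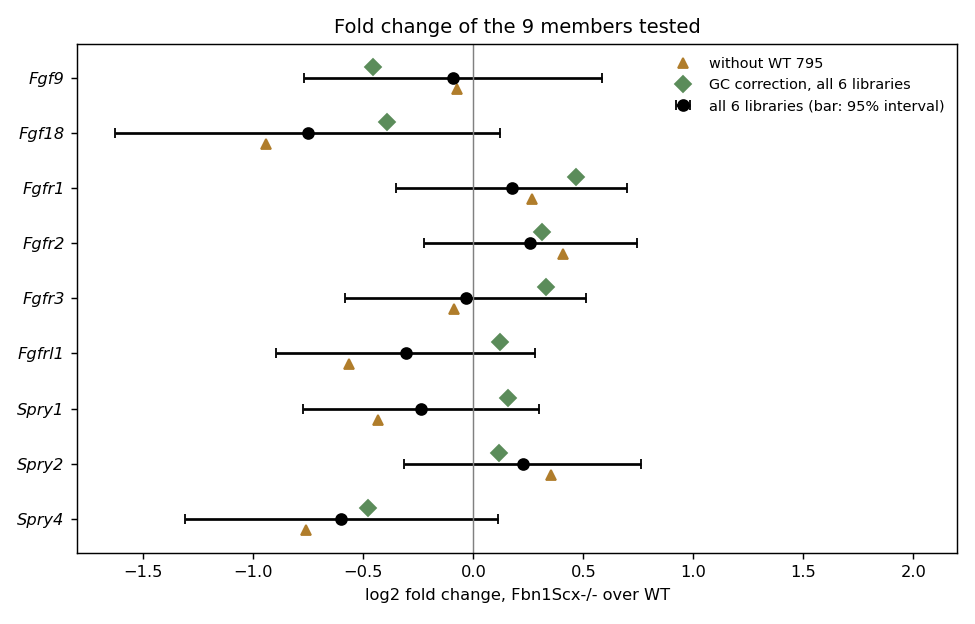
The log2 fold change of Fbn1Scx-/- over WT for the 9 genes tested, as black points with 95% intervals from the fit of all 6 libraries, with the values without WT-795 (triangles) and after the GC correction (diamonds). All 9 intervals include 0, and the GC correction moves Fgfr3, Fgfrl1 and Spry1 across 0.

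Leaving out WT-795 raised the number of genes past the adjusted threshold to 1512 of 15712 (9.62%), of which 962 (6.12%) were lower and 550 (3.5%) higher in Fbn1Scx-/-. WT-795 was the WT library inside the mutant range on the first principal component, so a fit without it favours differences between the groups. None of the 9 members was among the genes that passed. The smallest adjusted p among the members in that fit was 0.125, for Fgfrl1. Fgf18 was at -0.94 (SE 0.42, adjusted p = 0.144) and Spry4 at -0.76 (SE 0.35, adjusted p = 0.156) without it.

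The rest of the pathway was read from 4 lists of 79 further genes present in the matrix, of which 57 passed the filter. None passed by edgeR over all genes tested. At an unadjusted p under 0.05 by edgeR, 1 of the 57 was higher and 5 were lower. Of all 15712 genes tested, 529 were higher and 1119 (7.12%) lower at such a p. DESeq2 called 0 of the 57 after adjustment. The median log2 fold change over the 57 was 0.07, beside 0.01 for all genes tested. Without WT-795, 3 passed higher and 3 passed lower out of 57, where 9.62% of all genes tested passed. These were Flrt2, Braf and Pik3ca at 1.07, 0.89 and 0.71, and Akt1, Egr1 and Ier3 at -1.27, -1.202 and -0.95 (edgeR adjusted p between 0.0155 and 0.0457). For all of these but Pik3ca and Ier3, WT-795 lay inside the mutant range in CPM. Leaving it out therefore favours a difference, and these adjusted p are no support beyond the fit of all 6 libraries. Egr1, Ier3, Akt1 and Pik3ca are also among the 5 of these genes that the authors' deposited table lists, with the heparan sulphate proteoglycan gene Hspg2, while 0 of the 10 members are listed in the authors' deposited table of 1643 genes. Of all genes tested here, 9.2% are listed in the authors' deposited table, so 5 of 57 is near that background. The matched genes of the authors' deposited table had an unadjusted p of at most 0.04996 in the DESeq2 fit made here.

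Feedback inhibitors and ERK target genes had a median of -0.24, with 11 of 17 tested below 0, and this median was -0.09 with the GC correction and -0.42 without WT-795. The immediate early gene Egr1 was at 10.6, 8.999 and 5.14 CPM in Fbn1Scx-/- and 12.7, 24.4 and 9.70 CPM in WT, overlapping through WT-795, a log2 fold change of -0.94 (SE 0.36, edgeR adjusted p = 0.459). Ier3, an early response gene, was at 7.40, 9.90 and 8.23 CPM in Fbn1Scx-/- and 14.8, 17.4 and 10.3 CPM in WT, without overlap (log2 fold change -0.74, SE 0.27, edgeR adjusted p = 0.459). Phlda1, another early response gene, was at -0.61 (SE 0.29). These 3 had the smallest unadjusted p of the list, and with the GC correction they were at -0.50, -0.45 and -0.16. Another 6 genes form the FGF synexpression group, which is switched on and off together with FGF signals in embryos. Among them Dusp6, an ERK phosphatase gene, was at 19.8, 18.4 and 19.3 CPM in Fbn1Scx-/- and 19.9, 21.2 and 20.5 CPM in WT, apart by a narrow margin (log2 fold change -0.10, SE 0.21). Etv4 and Etv5, ETS factor genes induced by FGF, were at -0.48 (SE 0.46) and -0.41 (SE 0.26). The inhibitor genes Spred1, Spred2 and Il17rd were at 0.42 (SE 0.23), 0.00 (SE 0.26) and 0.07 (SE 0.27). None of these 6 passed. After the GC correction Dusp6, Etv4 and Etv5 were at -0.08, -0.11 and -0.26, and Spred1, Spred2 and Il17rd at 0.11, 0.10 and 0.13.

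**Figure D5:**
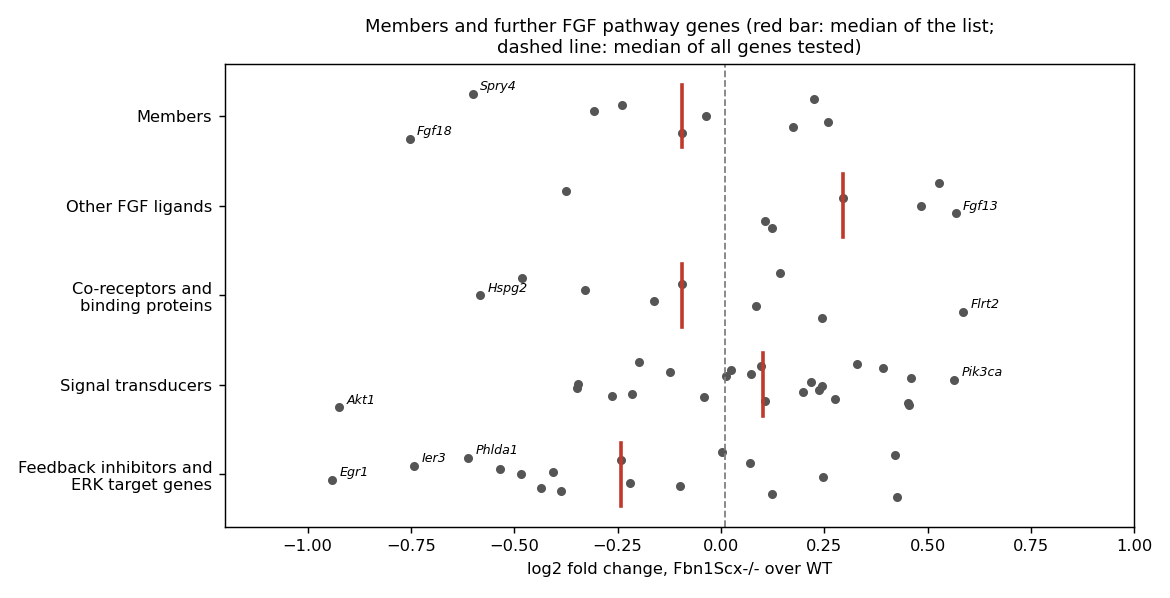
The log2 fold change of Fbn1Scx-/- over WT for the 9 members tested and for 57 further FGF pathway genes in 4 lists, 1 point per gene, with the list's median as a red bar and the median of all 15712 genes tested (0.01) as a dashed line. Names are given for the genes farthest from 0, and the feedback and ERK target list has its median at -0.24, which was -0.09 with the GC correction and -0.42 without WT-795.

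Of 20 other FGF ligand genes, 7 passed the filter and 6 of these lay above 0, with a median of 0.29 that was 0.06 after the GC correction. Fgf13, a non-secreted FGF homologue that acts inside the cell, was at 7.13, 8.40 and 7.92 CPM in Fbn1Scx-/- and 3.89, 6.13 and 5.82 CPM in WT, without overlap (log2 fold change 0.57, SE 0.29, edgeR adjusted p = 0.478). Fgf7, a mesenchymal ligand of an FGFR2 isoform, was at 0.53 (SE 0.30) and Fgf14, a relative of Fgf13, at 0.48 (SE 0.36). Fgf4, Fgf8, Fgf15, Fgf17 and Fgf21 had 0 counts in all 6 libraries, a level at which 3 counts would be 0.283 to 0.450 CPM.

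Co-receptor and binding protein genes had a median of -0.09, with 5 of 9 tested below 0. Flrt2, which encodes a membrane protein of the FGFR-binding FLRT family, was at 128, 111 and 105 CPM in Fbn1Scx-/- and 62.6, 44.3 and 123 CPM in WT, where WT-795 lay inside the mutant range (log2 fold change 0.59, SE 0.31, edgeR adjusted p = 0.480). Hspg2, which encodes the FGF-binding proteoglycan perlecan, was at -0.58 (SE 0.24), and Sdc3, a syndecan gene, at -0.48 (SE 0.24), and these were -0.17 and -0.06 with the GC correction. Among the signal transducers, 16 of 24 tested lay above 0 with a median of 0.10. Pik3ca, the catalytic subunit gene of PI3 kinase, was at 73.2, 61.6 and 62.3 CPM in Fbn1Scx-/- and 40.5, 38.5 and 54.5 CPM in WT, without overlap (log2 fold change 0.57, SE 0.22, edgeR adjusted p = 0.459). Akt1, a kinase gene downstream of it, was at 17.2, 39.4 and 43.6 CPM in Fbn1Scx-/- and 89.8, 67.9 and 32.3 CPM in WT, where WT-795 lay among the mutant libraries (log2 fold change -0.92, SE 0.37, edgeR adjusted p = 0.459). Crk, an adaptor gene, was at 0.45 (SE 0.24). With the GC correction Pik3ca, Akt1 and Crk were at 0.24, -0.47 and 0.25.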

How the data were processed

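Libraries of column-purified RNA were made, per the labels' protocols, with SMART-Seq v4 and Nextera XT. The deposited matrix holds raw counts per gene, and the submitters' processing notes name the build GRCm38.p6 and DESeq2. Per the file headers, the columns are coordinate-sorted alignments. The strand setting and the treatment of multimapping reads are details not given in the sources used here, so overlapping and antisense genes cannot be told apart. The authors' deposited table of log2 fold changes was used only to see which genes it lists: 1609 of 1643 could be matched, and each lay within 1e-04 of the value from DESeq2 run here.

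Groups came from the labels. Counts were tested with edgeR 4.0.16 in R 4.3.3 (TMM, filterByExpr by group, glmQLFit, glmQLFTest), two-sided, with DESeq2 1.42.0 and limma 3.58.1 as alternatives on the same genes. The SE is the absolute log2 fold change over the square root of F. Log2 CPM used a prior count of 2. Symbols, positions, lengths and GC come from GENCODE M21 and promoter windows from RefSeq. The GC correction removed a spline (5 degrees of freedom) of log2 CPM on transcript GC per library as an offset. Sex was read from Xist and Ddx3y. The test was checked on simulated counts that held no GC trend and no library lying apart from its group, so the check does not cover these. Reads carry no molecular identifiers, so limits from counts cover counting error only, and the common biological coefficient of variation was 0.249.

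Members, pathway lists and markers were chosen with earlier results of these data known. Further pathway genes named are, per list, the 3 with the smallest unadjusted p, which include Flrt2, plus the synexpression group. Braf was named outside this rule, after its values were seen, because it passed without WT-795. Acan, Col2a1, Col9a2, Col11a1, Col1a1, Postn, Clec3b, Fmod and Thbs4 were likewise named from the marker lists after their values were seen. Of 80 pathway genes listed, 79 were found by symbol.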

Additional observations from a re-analysis of the deposited data

How the results depend on the processing

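Over 17 alternatives (2 scalings, 2 filters, 3 other tests, the GC correction, sex, the replicate block, the GC correction with the replicate block, and each library left out), 0 of the 9 members tested passed in any. Of 153 member values, 142 kept their direction and 11 turned. With the GC correction Fgfr3, Fgfrl1 and Spry1 were at 0.33, 0.12 and 0.16, and at 0.31, 0.13 and 0.15 with the GC correction and the replicate block together. With sex as a covariate Fgf9, Fgfr1 and Spry2 were at 0.17, -0.37 and -0.10. With 1 library left out, Fgf9 ranged from -0.27 to 0.05 (0.047 without mut-597) and Fgfr3 from -0.20 to 0.09 (0.093 without mut-795). Fgf18 kept its direction, between -1.08 and -0.39 (edgeR adjusted p, or that of the other tests, 0.144 to 0.930), as did Spry4 (0.156 to 0.930) and Fgfr2.

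The number of genes past the threshold, 1 in the fit reported, was 270 without a filter, 4 with the GC correction and replicate block, 0 with sex as a covariate and between 1 and 1512 with 1 library left out, the highest without WT-795 and 9 without mut-795. Further FGF pathway genes past it numbered 1 without a filter (Akt1, adjusted p = 0.0246) and between 0 and 6 with 1 library left out, the highest without WT-795. The cause was not tested. Same-numbered libraries did not deviate together, with correlations of -0.18, 0.24 and -0.20 for mut-596 and WT-596, mut-597 and WT-597, and mut-795 and WT-795. Deviations from the means of so few libraries cannot show whether the numbers mark pairs. The replicate block gave 1 gene. Ranks by level were kept by 8 to 10 of the 10 genes. Counts of 0 to 66 per library limit Fgfr4, Fgf18, Spry4 and Fgf9.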
